A study of Homo sapiens with 6 samples.

Results

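Fluvastatin, a statin that blocks the mevalonate pathway, was given to the human melanoma cell line A375, and 9 genes of bone morphogenetic protein (BMP) signalling and its ID targets were followed. The members were chosen by gene symbol: the ligand gene BMP4, the receptor genes BMPR1A and BMPR2, the signal transducer genes SMAD1 and SMAD5, and the target genes ID1, ID2, ID3 and ID4. All 9 were among the 29790 genes of the table. The compared groups were A375 cells exposed to 3 µM fluvastatin for 24 h (3 libraries) and control A375 cells (3 libraries). The libraries were numbered 0, 1 and 2 in each group, and the data come from a single cell line. The labels do not say whether the 3 libraries of a group came from separate cultures, so every p-value below speaks for the scatter among these 6 libraries, part of which may be technical. In bulk RNA, fewer cells of a type and less RNA per cell cannot be told apart.

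BMP ligands are secreted dimers that bring together type I receptors such as BMPR1A with the type II receptor BMPR2. The activated type I receptor phosphorylates SMAD1 and SMAD5, which join SMAD4 and enter the nucleus, where the ID genes are among their best known targets. ID proteins have a helix-loop-helix but no basic DNA-binding region; they capture E proteins such as TCF3 and TCF12 and keep these from DNA. In melanoma, ID1 has been studied as a repressor of CDKN2A, which encodes a cyclin-dependent kinase inhibitor.

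Levels were given as FPKM, in which fragment numbers are divided by transcript length and by the size of the library. The steps between low values gave relative depths of 1.274, 1.513 and 1.404 for fluvastatin replicates 0, 1 and 2, and of 1, 1.185 and 0.964 for control replicates 0, 1 and 2. The shallowest fluvastatin library was deeper than the deepest control, so depth and treatment cannot be told apart. Of the lineage markers, SOX10 stood at 67.1 to 75.4 FPKM in fluvastatin libraries and 20.1 to 26.1 in control libraries, and MITF at 6.10 to 7.04 and 6.66 to 7.77 FPKM. The pigment genes PMEL, DCT and TYRP1 lay below 1 FPKM in every library. Of 4 markers of dedifferentiated melanoma, 3 rose, where 14.1% of all tested genes rose. As the markers named were picked after their values were seen, nothing is read from that count. NT5E stood at 128.2 to 149.3 FPKM in fluvastatin libraries and 73.5 to 79.9 in control libraries. EGFR stood at 29.2 to 35.0 and 23.1 to 24.4 FPKM, and NGFR at 23.7 to 27.0 and 14.5 to 18.5 FPKM. AXL, the other, stood at 304.7 to 324.9 and 320.7 to 342.9 FPKM and did not pass. Among markers of other cell types the keratin gene KRT14 stood at 4.02 to 5.85 FPKM in fluvastatin libraries and 0.589 to 0.774 FPKM in control libraries. KRT5 stood at 0.181 to 0.398 and 0 to 0.278 FPKM and the endothelial markers PECAM1 and VWF at 0.116 FPKM or less in any library. What part these shifts had in the results was not tested.

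Promoter sequence is shown for 4 genes on which the results turn: ID3, which fell, its paralog ID1, which did not pass the test, BMPR2, which rose, and SMAD6, an inhibitor and target of the pathway that fell. Sequences and start sites are RefSeq's on GRCh38.p14, read 5′ to 3′ on the gene's own strand, and capitals mark matches to 3 known SMAD-binding motifs: the GC-rich motif GGCGCC, the short motif CAGAC and the palindrome GTCTAGAC. No match overlaps another. The ID1 window (chr20:31605039-31605282, plus strand) and the BMPR2 window (chr2:202376077-202376326, plus strand) lie upstream of the start site and outside annotated exons. For ID3 (chr1:23559631-23559660, minus strand) and SMAD6 (chr15:66702202-66702231, plus strand), 30 bases about the match are given, and each of these stretches overlaps an exon annotated in GENCODE 29.
ID1: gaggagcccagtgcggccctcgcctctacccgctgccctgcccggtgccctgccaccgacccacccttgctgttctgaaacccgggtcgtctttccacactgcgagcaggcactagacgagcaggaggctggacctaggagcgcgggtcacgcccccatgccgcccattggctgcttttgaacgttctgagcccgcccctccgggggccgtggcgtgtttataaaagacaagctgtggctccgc
ID3: ggtcttcggcgtCAGACcagccggaggaag
BMPR2: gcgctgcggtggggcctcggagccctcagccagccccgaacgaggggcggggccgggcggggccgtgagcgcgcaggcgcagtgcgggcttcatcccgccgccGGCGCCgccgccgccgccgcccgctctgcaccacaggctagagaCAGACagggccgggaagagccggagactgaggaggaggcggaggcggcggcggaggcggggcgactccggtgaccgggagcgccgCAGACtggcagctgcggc
SMAD6: agcgccgcggagccgccaaagtGTCTAGAC

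Both strands of the 250 bases before each RefSeq start were searched. GGCGCC, the GC-rich SMAD1 and SMAD5 motif, was in 16.4% of all 35116 such windows, CAGAC in 38.0% and the palindrome GTCTAGAC in 0.182%. The ID1 and ID2 windows held none of the 3. ID3 and ID4 held CAGAC 1 time each, BMPR2 held GGCGCC 1 time and CAGAC 2 times, and SMAD5 and BMPR1A held neither. BMP4 and SMAD1 have 3 and 5 windows for their several starts; 1 BMP4 window and 2 SMAD1 windows held GGCGCC, and 2 BMP4 windows and 1 SMAD1 window held CAGAC. Beside the members, SMAD6 and BMP6 were searched. The SMAD6 window held the palindrome, and the BMP6 window held none of the 3. The E-box CANNTG, the motif of the E proteins that ID proteins capture, was in 61.8% of all windows and matched 1 time each in ID2, ID4, SMAD5 and BMPR2, 2 times in BMPR1A, in 1 BMP4 and 3 SMAD1 windows, and not in ID1, ID3 or SMAD6. The cyclic AMP response element TGACGTCA, held by 1.65% of windows, was in no member's window, nor in that of SMAD6 or BMP6. The BMP6 window held no E-box either. A match is a description of these letters, and a missing one says nothing of sites elsewhere.

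Of the 9 members, 8 reached at least 1 FPKM in at least 3 libraries and were tested. ID3 fell, BMPR2 and BMP4 rose, and ID1, ID2, SMAD1, SMAD5 and BMPR1A did not pass the test. The test was limma on log2(FPKM + 1), two-sided, with Benjamini-Hochberg adjustment over 14344 genes and a threshold of 0.05. The 3 members called were 37.5% of the 8 tested, and 27.7% of all genes tested were called, so the members' share was near the background for so few genes. The median log2 fold change was 0.12 over the 8 members and -0.01 over all genes. No member passed when the estimated depth was added as a covariate, and of the other pathway genes named with a call only BMP6 and CDKN1C still passed.

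**Figure D1:**
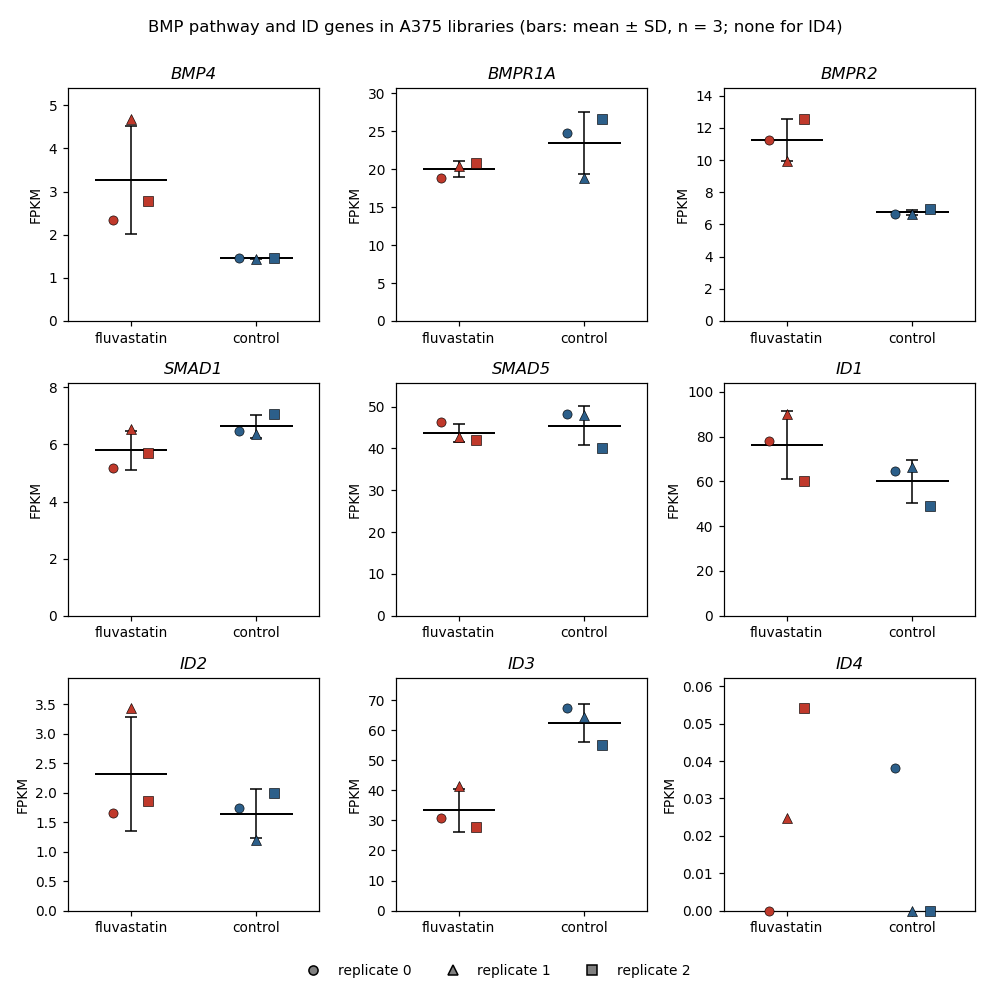
FPKM of the 9 genes in each library, fluvastatin on the left and control on the right of each panel, with marker shape for the replicate number and bars for the mean and SD (n = 3), left out for ID4. BMPR2, BMP4 and ID3 are the panels in which the groups do not overlap, and fluvastatin replicate 1 is the highest library for BMP4, ID1 and ID2.

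The ligand BMP4 (ENSG00000125378.15; chromosome 14, 53949736 to 53958761, minus strand, GRCh38), a BMP that also patterns the neural crest, was low. It stood at 2.34, 4.69 and 2.78 FPKM in fluvastatin replicates 0, 1 and 2 and at 1.45, 1.43 and 1.46 FPKM in control replicates 0, 1 and 2. All 3 fluvastatin libraries lay above the controls, and replicate 1 lay well above the other fluvastatin libraries. The mean was 3.27 ± 1.25 FPKM in fluvastatin and 1.45 ± 0.0125 FPKM in control (SD, n = 3 each), 2.26-fold higher, or 1.77-fold without fluvastatin replicate 1. The log2 fold change was 0.76 ± 0.20 (SE; limma adjusted p = 0.0299). It no longer passed on leaving out control replicate 0 (0.0706), 1 (0.0778) or 2 (0.0671) or fluvastatin replicate 2 (0.0604), and with no filter on low values (0.0785), over a range of 0.0122 to 0.700 across alternatives.

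The ligand genes BMP2, BMP6 and BMP8B rose as well, and the other listed ligand genes were not tested. Of 13 ligand genes listed beside BMP4, 9 were in the table, 3 passed the filter on low values, and these 3 rose. BMP6 and BMP8B had control means below 1 FPKM and passed the filter through the fluvastatin libraries, so the count is no measure of the ligand genes as a whole. Of all tested genes, 14.1% rose and 13.6% fell. BMP6, known in the liver as the inducer of hepcidin, stood at 7.22, 7.19 and 7.58 FPKM in fluvastatin replicates 0, 1 and 2 and at 0.737, 0.791 and 0.789 FPKM in the controls. The groups were far apart, 9.49-fold in the mean, with little spread within either (log2 fold change 2.23 ± 0.08, SE; limma adjusted p = 5.97e-05). BMP6 passed even with depth as a covariate (adjusted p = 0.0267). BMP2, the close relative of BMP4, averaged 22.2 ± 0.671 FPKM in fluvastatin and 11.7 ± 0.805 FPKM in control (SD, n = 3 each), 1.89-fold higher with adjusted p = 0.00138 by limma. BMP8B averaged 1.58 ± 0.211 and 0.727 ± 0.0447 FPKM in fluvastatin and control (adjusted p = 0.00665 by limma). BMP2, BMP4, BMP6 and BMP8B were summed after their values were seen, and all 4 had been called as rising. A higher sum in fluvastatin therefore follows from the choice, and the shares of that sum restate the fold values of its 4 genes. The summed FPKM was 32.7, 36.6 and 33.8 in fluvastatin replicates 0, 1 and 2 and 13.8, 14.7 and 15.5 in the controls. BMP2 made up 62.6% to 66.5% of that sum in fluvastatin libraries and 79.1% to 81.0% in control libraries, and BMP6 made up 19.6% to 22.5% and 5.1% to 5.4%. BMP7 was above 0 in fluvastatin replicates 0 (0.0408 FPKM) and 1 (0.875 FPKM) and was listed at 0 in the other 4 libraries.

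Secreted modulators moved in both directions. Of 21 listed, 9 were tested, of which 2 rose, 3 fell and 4 did not pass, with a median log2 fold change of -0.20. For comparison, 14.1% of all tested genes rose and 13.6% fell. FST encodes follistatin, which binds activins and, more weakly, BMPs. It fell 2.06-fold, to 57.7, 69.5 and 56.0 FPKM in fluvastatin replicates 0, 1 and 2, against 129.7, 127.4 and 120.9 FPKM in the controls (limma adjusted p = 0.00152). CRIM1, a membrane protein with cysteine-rich repeats that binds BMPs, fell 2.32-fold, to 93.4 ± 1.28 FPKM in fluvastatin, against 216.9 ± 14.5 FPKM in control (SD, n = 3 each; limma adjusted p = 4.45e-04). FSTL3, a follistatin-like inhibitor, rose 2.75-fold, to 76.2 ± 5.90 FPKM in fluvastatin, against 27.7 ± 4.17 FPKM in control (limma adjusted p = 9.55e-04). BMP1, a procollagen protease that is no BMP but cleaves the antagonist chordin, rose 1.83-fold (limma adjusted p = 0.00804). FSTL1 was at 54.0 ± 3.53 FPKM in fluvastatin and 61.9 ± 2.52 FPKM in control (limma adjusted p = 0.149).

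**Figure D2:**
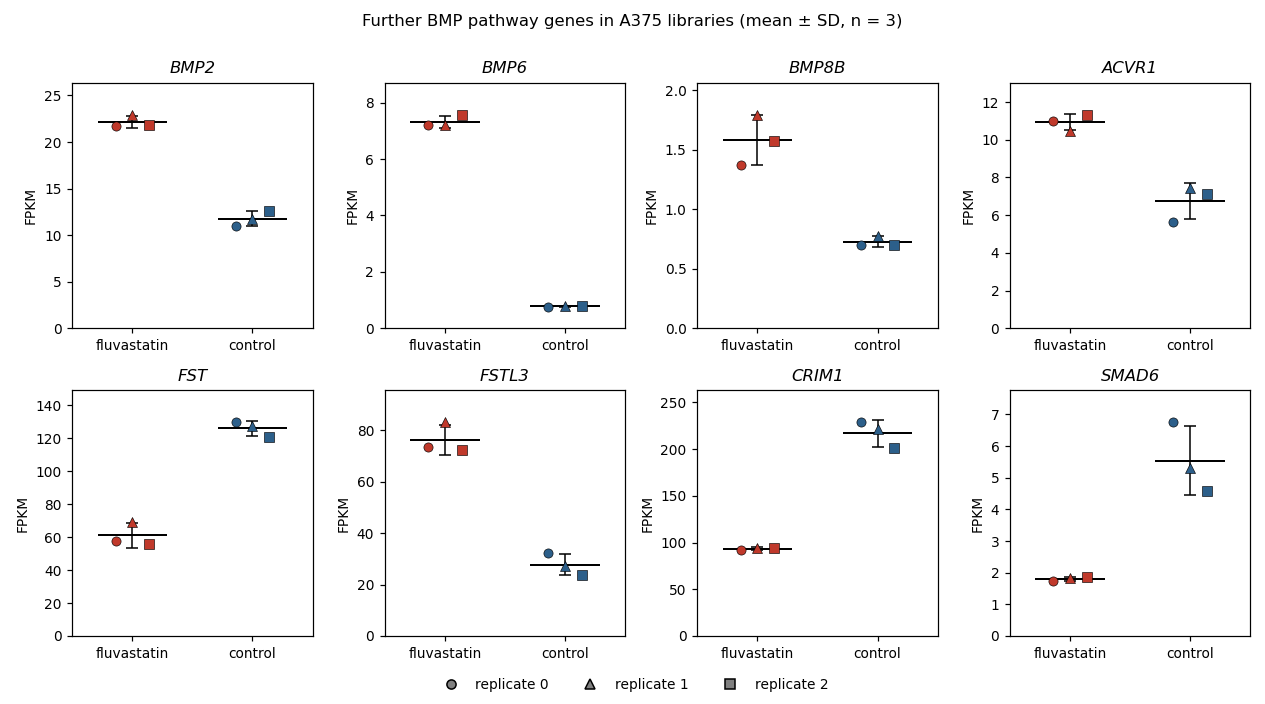
FPKM of 8 listed pathway genes in each library, fluvastatin on the left and control on the right of each panel, with marker shape for the replicate number and bars for the mean and SD (n = 3). The 8 were picked from the listed genes with a call and do not stand for the lists. In all 8 panels the groups do not overlap, as in 44.8% of all tested genes. BMP6 lies at 7.19 to 7.58 FPKM in fluvastatin libraries and at 0.737 to 0.791 FPKM in control libraries.

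BMPR2 (ENSG00000204217.12; chromosome 2, 202376936 to 202567751, plus strand) encodes the type II receptor, whose kinase activates the type I receptor; its upstream sequence is printed above. BMPR2 stood at 11.2, 9.95 and 12.6 FPKM in fluvastatin replicates 0, 1 and 2 and at 6.66, 6.68 and 6.93 FPKM in control replicates 0, 1 and 2. The fluvastatin libraries all lay above the closely grouped controls. The mean was 11.3 ± 1.31 FPKM in fluvastatin and 6.75 ± 0.151 FPKM in control (SD, n = 3 each), 1.67-fold higher, with a log2 fold change of 0.66 ± 0.10 (SE; limma adjusted p = 0.00601). With depth as a covariate the log2 fold change was 0.77 and the call was lost (adjusted p = 0.159 in limma, range 0.00209 to 0.159 across alternatives).

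BMPR1A (ENSG00000107779.12; chromosome 10, 86756601 to 86932838, plus strand), the type I receptor, did not pass. It stood at 18.9, 20.4 and 20.9 FPKM in fluvastatin replicates 0, 1 and 2 and at 24.8, 18.9 and 26.7 FPKM in control replicates 0, 1 and 2. The groups overlapped through control replicate 1. The log2 fold change was -0.20, with a 95% interval of -0.54 to 0.13 and a limma adjusted p of 0.321. Its processed pseudogenes BMPR1APS1 and BMPR1APS2 stood at 0.226 FPKM or less in any library.

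Among the other receptors and co-receptors, 9 of 13 listed were tested, of which 2 rose, 1 fell and 6 did not pass. These counts stand beside 14.1% of all tested genes that rose and 13.6% that fell. ACVR1, the type I receptor also called ALK2, stood at 10.5 to 11.3 FPKM in fluvastatin libraries and at 5.64 to 7.42 FPKM in control libraries, 1.62-fold higher in the mean (limma adjusted p = 0.00944). BAMBI, a decoy receptor without a kinase that BMP signalling induces, averaged 1.71 ± 0.319 FPKM in fluvastatin and 0.867 ± 0.310 FPKM in control (limma adjusted p = 0.0426), and it too passed the filter through the fluvastatin libraries. RGMB, a membrane-anchored BMP co-receptor, was at 28.9, 26.6 and 28.6 FPKM in fluvastatin replicates 0, 1 and 2 and at 35.1, 33.2 and 34.7 FPKM in the controls (limma adjusted p = 0.0446). Leaving out any 1 of the 6 libraries ended the call of BAMBI (0.0560 to 0.118) and of RGMB (0.0870 to 0.123). Quantile normalization ended the calls of BAMBI (0.0805) and RGMB (0.0530), as did the replicate number as a block (0.0555 and 0.0785). BAMBI also lost its call with a pseudocount of 0.1 (0.0605), with no filter (0.0950) and with limma's trend and robust options on (0.0708). RGMB also lost its call with trimmed-mean scaling (0.0503). ENG, the co-receptor endoglin, was at 32.1 ± 0.383 FPKM in fluvastatin and 38.2 ± 2.43 FPKM in control and did not pass (limma adjusted p = 0.0804). BMPR1B, another type I receptor, stood at 0.887 to 1.23 FPKM in fluvastatin and 0.883 to 1.07 FPKM in control and was below the filter.

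SMAD1 (ENSG00000170365.9; chromosome 4, 145481194 to 145558079, plus strand) and SMAD5 (ENSG00000113658.16; chromosome 5, 136132845 to 136188747, plus strand) carry the BMP signal to the nucleus, and neither passed. SMAD1 stood at 5.17, 6.53 and 5.72 FPKM in fluvastatin replicates 0, 1 and 2 and at 6.47, 6.35 and 7.08 FPKM in the controls. Its groups overlapped, and the log2 fold change was -0.17 with a 95% interval of -0.42 to 0.08 (limma adjusted p = 0.273). SMAD5 stood at 46.3, 42.8 and 42.1 FPKM in fluvastatin replicates 0, 1 and 2 and at 48.4, 48.1 and 40.0 FPKM in the controls. All fluvastatin values of SMAD5 lay inside the control range, and the log2 fold change was -0.05 with a 95% interval of -0.31 to 0.20 (limma adjusted p = 0.752). The intervals leave room for changes of modest size in either gene. SMAD5 was the more abundant transcript per length in every library.

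Of 18 intracellular regulators listed, 16 were tested, of which 3 rose, 2 fell and 11 did not pass. Over all tested genes, 14.1% rose and 13.6% fell. The median log2 fold change of the 16 was 0.04. The largest fall was that of SMAD6 (ENSG00000137834.14), the inhibitory SMAD that blocks BMP type I receptors and is itself a BMP target. SMAD6 stood at 1.73, 1.82 and 1.87 FPKM in fluvastatin replicates 0, 1 and 2 and at 6.75, 5.30 and 4.59 FPKM in control replicates 0, 1 and 2. Every fluvastatin library lay far below the lowest control, a 3.07-fold fall with a log2 fold change of -1.21 ± 0.13 (SE; limma adjusted p = 0.00169). SMAD7, the other inhibitory SMAD, stood at 2.89 to 4.11 FPKM in fluvastatin and 3.77 to 6.22 FPKM in control and did not pass (limma adjusted p = 0.220). TOB1, an antiproliferative protein that restrains SMADs in mouse osteoblasts, rose 2.21-fold (limma adjusted p = 0.00388). TAB1, an activator of the kinase TAK1, rose 1.78-fold (limma adjusted p = 0.0117). SKIL, a SMAD co-repressor, was 1.35-fold lower (limma adjusted p = 0.0405). That call ended on leaving out control replicate 1 (0.116) or 2 (0.0925), or fluvastatin replicate 0 (0.105) or 1 (0.109). It also ended with no filter on low values (0.0683) and with the replicate number as a block (0.071). FKBP1A, which binds type I receptors, was at 234.6 ± 3.01 FPKM in fluvastatin and 213.1 ± 3.91 FPKM in control (limma adjusted p = 0.227).

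ID3 and ID1 were the most abundant ID transcripts; ID3 fell and ID1 did not pass the test. ID3 (ENSG00000117318.8; chromosome 1, 23557918 to 23559794, minus strand) stood at 30.8, 41.5 and 27.9 FPKM in fluvastatin replicates 0, 1 and 2 and at 67.3, 64.5 and 55.3 FPKM in control replicates 0, 1 and 2. All fluvastatin libraries lay below all controls. The mean was 33.4 ± 7.12 FPKM in fluvastatin and 62.4 ± 6.31 FPKM in control (SD, n = 3 each), 1.87-fold lower, with a log2 fold change of -0.90 ± 0.16 (SE; limma adjusted p = 0.00967). With depth as a covariate the log2 fold change was -1.25 and the call was lost (adjusted p = 0.138 in limma, range 0.00270 to 0.138 across alternatives).

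ID1 (ENSG00000125968.8; chromosome 20, 31605283 to 31606515, plus strand), the paralog most studied as a BMP target, stood at 78.2, 90.3 and 60.3 FPKM in fluvastatin replicates 0, 1 and 2 and at 64.8, 66.2 and 48.9 FPKM in control replicates 0, 1 and 2. The groups overlapped, since fluvastatin replicate 2 lay below control replicates 0 and 1. The log2 fold change was 0.33, with a 95% interval of -0.11 to 0.78 (limma adjusted p = 0.227), and it was -0.04 with depth as a covariate (adjusted p = 0.971 in limma).

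Within a library the ratio of ID3 to ID1 cancels what the genes share in that library; it was computed after their values were seen. ID3 over ID1 was 0.394, 0.459 and 0.463 in fluvastatin replicates 0, 1 and 2 and 1.04, 0.974 and 1.13 in control replicates 0, 1 and 2. Fluvastatin libraries thus held less ID3 than ID1 per length, and controls about as much of both. The log2 ratio was -1.19 ± 0.13 in fluvastatin and 0.06 ± 0.11 in control (SD, n = 3 each), a difference of -1.26. An exact two-sided permutation test gave p = 0.10, the smallest that 3 against 3 allows. As the ratio was computed after the values were seen, nothing is read from this p-value. ID3 made up 27.8% to 31.0% of the summed FPKM of the 4 ID genes in fluvastatin libraries and 48.9% to 52.0% in control libraries. The sum itself was 110.7, 135.2 and 90.1 FPKM in fluvastatin replicates 0, 1 and 2 and 134.0, 131.9 and 106.2 FPKM in control replicates 0, 1 and 2, and these ranges overlapped.

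**Figure D3:**
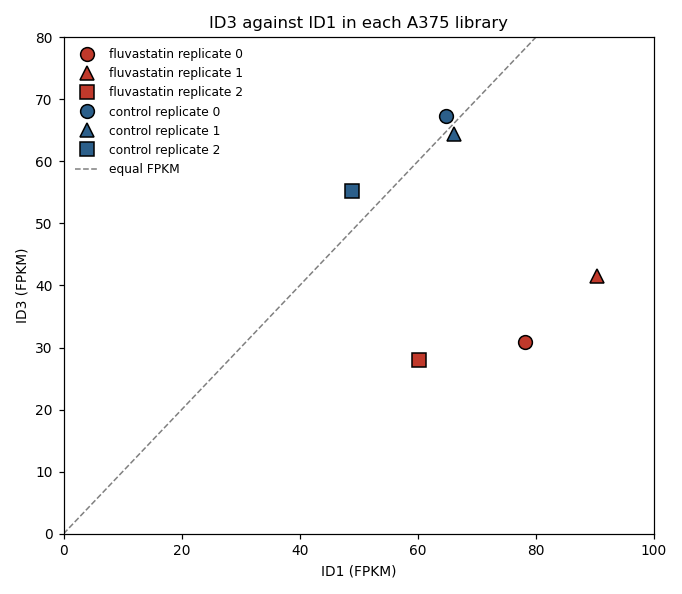
ID3 against ID1 in FPKM, 1 point per library, red for fluvastatin and blue for control, with marker shape for the replicate number and a dashed line where both are equal. The control libraries lie near the line, at ratios of 0.974 to 1.13, and the fluvastatin libraries lie below it, at 0.394 to 0.463.

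ID2 (ENSG00000115738.9; chromosome 2, 8678845 to 8684453, plus strand) was scarce, at 1.66, 3.43 and 1.86 FPKM in fluvastatin replicates 0, 1 and 2 and at 1.74, 1.19 and 2.00 FPKM in control replicates 0, 1 and 2. The groups overlapped, and the log2 fold change was 0.30 with a 95% interval of -0.23 to 0.83 (limma adjusted p = 0.357). Fluvastatin replicate 1 decided the mean difference, which was 1.41-fold with that library and 1.07-fold without it. ID4 (ENSG00000172201.11; chromosome 6, 19837386 to 19840684, plus strand) was at the edge of detection, with 0.0249 and 0.0541 FPKM in fluvastatin replicates 1 and 2 and 0.0383 FPKM in control replicate 0. It was listed at 0 in the other 3 libraries. By the smallest whole fragment numbers that the values allow, these 3 values rest on 1, 2 and 1 fragments, so no difference in ID4 was detectable at this depth.

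The order of the members by level, per length, changed near the top. Near the bottom the means of BMP4 and ID2 changed places, but their ranges overlapped in each group. In fluvastatin libraries ID1 led with a mean of 76.3 FPKM, before SMAD5 (43.7), ID3 (33.4), BMPR1A (20.0), BMPR2 (11.3), SMAD1 (5.81), BMP4 (3.27) and ID2 (2.31). In that order only BMP4 and ID2 had overlapping ranges. In control libraries ID3 (62.4 FPKM) and ID1 (60.0) led with overlapping ranges, before SMAD5 (45.5), BMPR1A (23.4), BMPR2 (6.75) and SMAD1 (6.64), which overlapped, and ID2 (1.65) and BMP4 (1.45), which overlapped. ID4 came last in both groups. Over all 6 libraries ID1 lay above 87.9% of tested genes, ID3 above 82.1%, BMP4 above 16.7% and ID2 above 13.5%.

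Of 17 known BMP target genes listed beside the ID genes, 13 were tested, of which 1 rose, 3 fell and 9 did not pass. Over all tested genes, 14.1% rose and 13.6% fell. The median log2 fold change of the 13 was -0.31, against -0.01 over all genes. All fluvastatin libraries lay below all controls in 5 of the 13 and above them in 2. The groups did not overlap in 44.8% of all tested genes. The riser was BAMBI and the largest fall that of SMAD6, both described above. MSX1, a homeobox factor of the neural crest, fell to 14.2, 14.6 and 12.5 FPKM in fluvastatin replicates 0, 1 and 2, against 22.3, 21.7 and 18.6 FPKM in the controls (limma adjusted p = 0.0112). TBX3, a T-box repressor, was 1.41-fold lower (limma adjusted p = 0.0219). That call ended when control replicate 1 (0.0646) or any fluvastatin library (0.0562 to 0.0694) was left out. It also ended with the replicate number as a block (0.0502). LEF1 was at 8.83 ± 2.14 FPKM in fluvastatin and 11.1 ± 2.27 FPKM in control (limma adjusted p = 0.295).

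**Figure D4:**
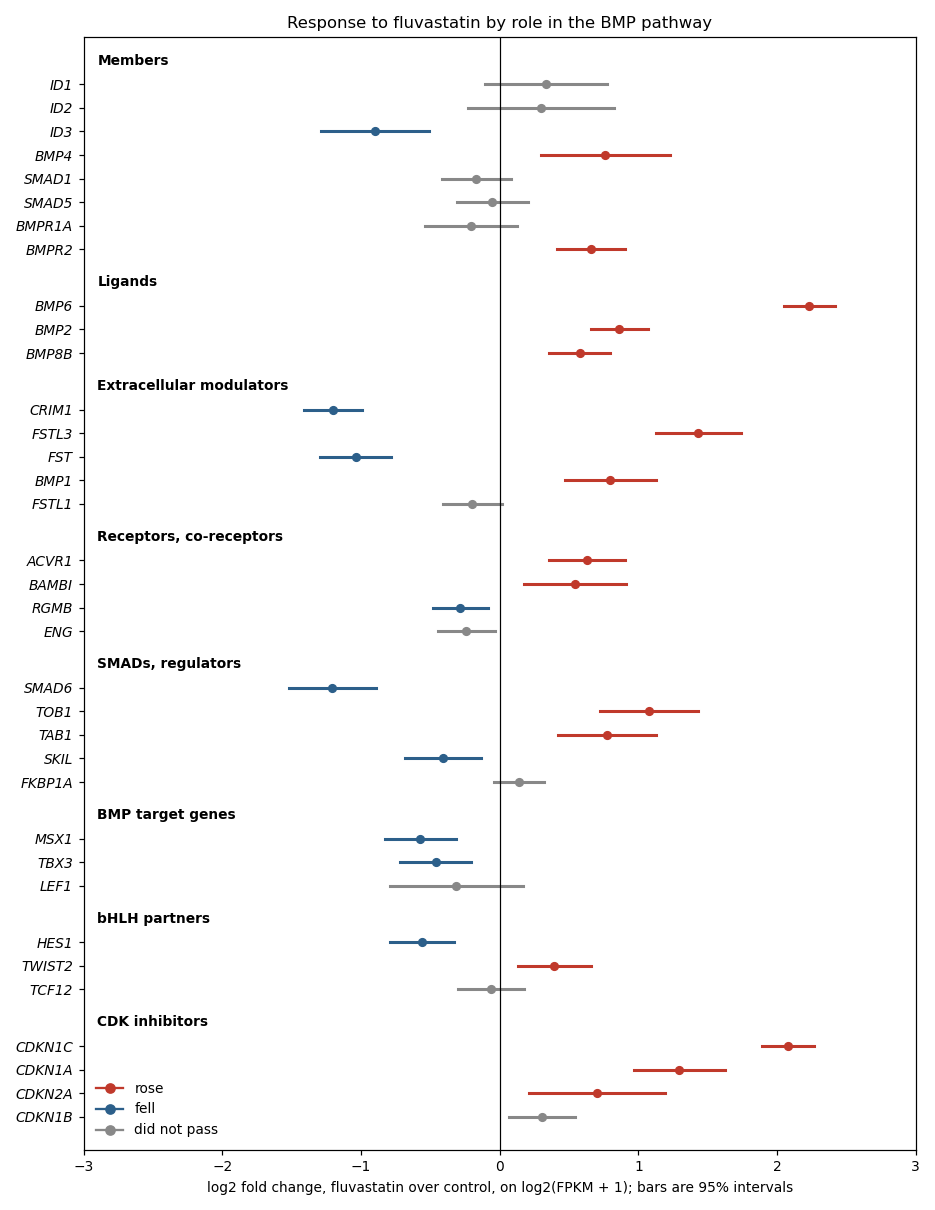
Log2 fold change of fluvastatin over control on log2(FPKM + 1), with 95% intervals, for the 8 tested members and the listed genes named by rule, in blocks by role. Red marks genes that rose, blue genes that fell and grey those that did not pass; ID3 (-0.90) and SMAD6 (-1.21) lie left of 0 and the ligands BMP4 (0.76), BMP2 (0.86) and BMP6 (2.23) right of it.

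Of 17 bHLH genes listed as partners of ID proteins, 6 were tested, of which 1 rose, 1 fell and 4 did not pass. Over all tested genes 27.7% were called, so nothing is read from the count of so few genes. The E protein TCF12 was at 63.8 ± 6.13 FPKM in fluvastatin and 66.4 ± 2.22 FPKM in control (limma adjusted p = 0.692). HES1, a bHLH repressor that Notch signalling induces, fell to 0.538, 0.618 and 0.723 FPKM in fluvastatin replicates 0, 1 and 2. The controls stood at 1.21, 1.56 and 1.45 FPKM (limma adjusted p = 0.00796). HES1 passed the filter on low values through the control libraries, where it is high. TWIST2, a mesenchymal bHLH factor, was 1.37-fold higher (limma adjusted p = 0.0387). That call ended when any control library, or fluvastatin replicate 1 or 2, was left out (0.0729 to 0.108). It also ended with no filter on low values (0.0615), with quantile normalization (0.0665) and with the replicate number as a block (0.0663).

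Genes of cyclin-dependent kinase inhibitors, some of which E proteins are known to activate, rose in 3 of 4 tested cases of 5 listed, where 14.1% of all tested genes rose. CDKN1C was among these 3 and passed the filter through the fluvastatin libraries, so nothing is read from the count. CDKN1C, which encodes p57, stood at 5.90, 5.81 and 5.59 FPKM in fluvastatin replicates 0, 1 and 2 and at 0.632, 0.554 and 0.615 FPKM in the controls. The groups lay 9.61-fold apart in the mean (limma adjusted p = 7.49e-05), and CDKN1C passed with depth as a covariate too (adjusted p = 0.0276). CDKN1A, which encodes p21, rose with adjusted p = 0.00162 in limma. CDKN2A was at 6.86, 7.87 and 6.01 FPKM in fluvastatin replicates 0, 1 and 2 and at 5.32, 3.89 and 2.67 FPKM in the controls (limma adjusted p = 0.0456). That call ended when control replicate 1 (0.102) or 2 (0.0746), or any fluvastatin library (0.0755 to 0.126), was left out. It also ended with a pseudocount of 0.1 (0.0643), with no filter on low values (0.113) and with quantile normalization (0.0698). CDKN1B, which encodes p27, was at 23.6 ± 2.13 FPKM in fluvastatin and 18.9 ± 0.907 FPKM in control (limma adjusted p = 0.0615).

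Over all 7 lists, 56 distinct genes were tested, of which 14 rose, 9 fell and 33 did not pass. The share called was 41.1%, against 27.7% of all tested genes. As the lists were written with earlier results of these data known, nothing is read from that share. Of the 23 called, 5 (BMP6, BMP8B, BAMBI, CDKN1C and HES1) had a mean below 1 FPKM in 1 group and passed the filter through the other. None of the 8 tested members did. In 3 of the 8 tested members (37.5%) the groups did not overlap, against 44.8% of all tested genes.

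The strand setting of the counting was not given, so reads of overlapping antisense genes cannot be told apart from those of the members. RP4-625H18.2, antisense to ID4, stood at 0.0295, 0.128 and 0.717 FPKM in fluvastatin replicates 0, 1 and 2 and at 0, 0 and 0.215 FPKM in control replicates 0, 1 and 2, up to well above ID4's own values. ID2-AS1 was above 0 in control replicate 1 alone (0.238 FPKM), SMAD1-AS1 stood at 0.233 FPKM or less and SMAD5-AS1 at 0.0803 FPKM or less in any library. The 3 short RNA features within SMAD5 on its own strand reached 27.6 FPKM in any library. All 3 were listed at 0 in fluvastatin replicate 0, and 2 of them also in a control library. No annotated gene overlapped ID1, ID3 or BMP4.

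The genes whose profiles over the 6 libraries were most like those of the ID genes were found by the root mean square difference of log2(FPKM + 1) centred on each gene's mean. Candidates were the genes tested with a mean of at least 5 FPKM, 10175 for ID1 and ID3 and 10176 for ID2. Nearest to ID3 were RP11-490M8.1 (0.095), CLEC11A (0.1) and CD320 (0.106), and nearest to ID1 were GMIP (0.059), SAT2 (0.062) and POFUT2 (0.076). Nearest to ID2 were IAH1 (0.097), AC009005.2 (0.121) and HTATSF1P2 (0.128).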

How the data were processed

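RNA of A375 cells was purified on columns and made into libraries by Illumina methods, per the labels' protocols. STAR, Cufflinks, Cuffdiff and hg38 are named, without versions, in the submitters' processing notes. The header of the deposited table names no unit, and its values were taken as FPKM as the authors' Cufflinks tools give it. The annotation release, the strand setting and any rescaling are not given in the sources used here.

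Of 29790 genes, 29542 identifiers matched GENCODE 29 (version suffix ignored), which gave gene types and coordinates. Genes that reached 1 FPKM in 3 or more libraries were fitted in limma 3.58.1 (R 4.3.3; lmFit and eBayes on log2 of FPKM plus a pseudocount of 1, no replicate block). "Rose" and "fell" stand for an adjusted p under 0.05. Means, SDs and fold values are in FPKM, and log2 fold changes understate those of low genes. Intervals are 95% intervals of that fit. The fit and the depth estimate were tested on simulated data.

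FPKM carries no counts, so total depth is not known directly. Relative depth was the most frequent ratio between a library and control replicate 0 over genes listed at 0 in at least 1 library.

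Members and lists were chosen with earlier results of these data known. Beside the members, the text names at most 4 called genes per list, taken by adjusted p, the uncalled gene with the highest mean, and the 3 nearest profiles of ID1, ID2 and ID3. BMP7, BMPR1B, SMAD7 and the marker genes named were picked after their values were seen. CDKN2B, MLANA and TYR were not analysed here.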

Additional observations from a re-analysis of the deposited data

How the results depend on the processing

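The fit was repeated with a pseudocount of 0.1, without a filter, with a minimum mean of 5 FPKM, with trimmed-mean and quantile scaling, trend and robust on, protein-coding genes alone, the replicate block, estimated depth as a covariate and leaving out each library. Every fluvastatin library was deeper than every control, and with depth as a covariate 70 genes passed in place of 3971. In that fit 0 of the 8 members passed: ID3 was at -1.25, BMPR2 at 0.77 and BMP4 at 0.30, and counts called were 1 ligand, 1 CDK inhibitor and 0 in each of the other 5 lists. BMP4 at 0.76 also missed the threshold without a filter. Of the other alternatives, the block, which the numbers do not warrant, gave 3154 genes. Same-numbered libraries deviated with r of -0.00, 0.09 and 0.08 over 14344 genes, and not every library correlated best with its own number. With the replicate block 1 receptor, 3 intracellular regulators and 1 bHLH partner were called, in place of 3, 5 and 2. With a mean of at least 5 FPKM, 1 ligand, 2 target genes and 1 bHLH partner were called. BMP6, BMP8B, SMAD6, BAMBI and HES1 lay below that mean and were not tested in that fit. No filter and quantile normalization left 1 bHLH partner each, and protein-coding genes alone gave 7 target genes in place of 4. Leaving out 1 library gave 2340 to 3416 genes, BMP4 at 0.54 to 0.92, 1 receptor each time, 3 to 4 intracellular regulators, 2 to 3 target genes and 1 to 2 bHLH partners. ID3 and BMPR2 kept their calls in each fit but that with depth, and the ID3 to ID1 difference, recomputed with a pseudocount of 1 and without each library alone, lay within 1 SD of its value in those settings. Scaling moved the median of all genes by less than 0.1.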
